A study of Mus musculus with 6 samples.

Results

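Transcripts of 45 genes of DNA replication and mitosis were examined in AtT-20, a line of ACTH-producing cells from a mouse tumour of the pituitary. The genes were given as a list by symbol: 22 act in DNA replication and its preparation, and 23 act in mitosis. A probe set of the array was taken for a gene when the platform annotation maps it to that symbol alone. By this rule 98 of the 45101 probe sets stood for 44 of the 45 genes, all 22 replication genes and 22 of the 23 mitosis genes. Ccnb1 was not matched and is not analysed here. The siDNMT1 group (3 arrays) received siRNA against Dnmt1 and the siNT group (3 arrays) a non-targeting siRNA, both at 20 nM, given repeatedly up to day 8. There were 3 independent repeats of the treatment, so each repeat holds 1 array of each group. All arrays come from 1 tumour cell line, and both groups received repeated siRNA treatment. The comparison made is siDNMT1 against siNT.

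A dividing cell loads the MCM helicase onto replication origins from late mitosis through G1, fires these origins in S phase, and then separates the copied chromosomes in mitosis. Most genes of the first set are known to be transcribed around the G1/S transition under E2F factors, and most genes of the second set in G2 and M phase under the DREAM and MuvB complexes with B-Myb and FoxM1. The protein Dnmt1 is itself bound to the replication clamp during S phase, where it copies methyl groups to the new strand. In bulk RNA, fewer cells in a phase and less RNA per cell of that phase cannot be told apart.

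The promoters of both sets were searched for the elements known to time their transcription, which the choice of genes by symbol did not use. RefSeq promoters (GRCm38.p6, 250 bases before to 50 after a start) were at hand for 18 of the 22 replication genes (19 promoters) and for 18 of the 23 mitosis genes, Ccnb1 included. The words searched on both strands were for E2F the word TTCCCGC and, differing from it in the middle letters, TTGGCGC, then also TTCGCGC and lastly TTGCCGC, with TTTGAA for the cell cycle homology region (CHR), and CCAAT for the box bound by NF-Y. E2F words can overlap each other and CCAAT. Each promoter below is given 5′ to 3′ on the strand of its gene, with all matches in capitals. The first 3 are replication genes with E2F words and the last 3 are mitosis genes with CHR words and CCAAT boxes, and all 6 genes are among those given on every array. They lie at chr1:20820263-20820562 on the minus strand (Mcm3), chr8:122567765-122568064 on the plus strand (Cdt1), chrX:93632106-93632405 on the minus strand (Pola1), chr10:69352863-69353162 on the minus strand (Cdk1), chr11:99024140-99024439 on the minus strand (Top2a) and chr4:118437294-118437593 on the minus strand (Cdc20).
Mcm3: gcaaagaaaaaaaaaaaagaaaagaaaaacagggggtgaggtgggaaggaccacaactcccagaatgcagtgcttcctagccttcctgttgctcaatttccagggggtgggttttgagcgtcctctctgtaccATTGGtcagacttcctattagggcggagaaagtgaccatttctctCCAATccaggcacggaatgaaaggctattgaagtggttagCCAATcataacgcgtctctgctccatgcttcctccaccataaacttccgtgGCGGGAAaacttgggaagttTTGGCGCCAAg
Cdt1: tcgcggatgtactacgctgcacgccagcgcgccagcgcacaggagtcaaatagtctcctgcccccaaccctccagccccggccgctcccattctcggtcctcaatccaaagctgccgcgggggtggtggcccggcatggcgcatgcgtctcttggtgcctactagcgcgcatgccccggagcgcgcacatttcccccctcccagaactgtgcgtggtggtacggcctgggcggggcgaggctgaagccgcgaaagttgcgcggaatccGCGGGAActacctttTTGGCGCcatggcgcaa
Pola1: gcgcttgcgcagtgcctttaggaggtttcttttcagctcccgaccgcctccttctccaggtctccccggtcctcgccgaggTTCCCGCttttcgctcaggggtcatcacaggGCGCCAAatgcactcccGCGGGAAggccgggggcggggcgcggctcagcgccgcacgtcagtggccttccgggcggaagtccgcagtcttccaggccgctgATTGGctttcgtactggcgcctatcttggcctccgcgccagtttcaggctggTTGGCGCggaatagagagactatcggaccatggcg
Cdk1: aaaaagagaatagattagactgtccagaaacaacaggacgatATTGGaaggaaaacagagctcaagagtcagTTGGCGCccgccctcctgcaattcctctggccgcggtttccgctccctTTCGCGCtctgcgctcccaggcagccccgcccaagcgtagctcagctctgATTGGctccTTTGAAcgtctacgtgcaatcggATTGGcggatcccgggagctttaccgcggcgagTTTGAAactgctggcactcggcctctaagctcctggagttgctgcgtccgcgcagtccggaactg
Top2a: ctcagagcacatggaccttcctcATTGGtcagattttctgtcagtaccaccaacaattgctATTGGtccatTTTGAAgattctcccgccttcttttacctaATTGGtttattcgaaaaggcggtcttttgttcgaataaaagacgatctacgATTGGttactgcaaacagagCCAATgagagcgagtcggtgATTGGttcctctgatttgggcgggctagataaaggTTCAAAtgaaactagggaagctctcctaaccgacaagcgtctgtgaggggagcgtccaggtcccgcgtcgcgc
Cdc20: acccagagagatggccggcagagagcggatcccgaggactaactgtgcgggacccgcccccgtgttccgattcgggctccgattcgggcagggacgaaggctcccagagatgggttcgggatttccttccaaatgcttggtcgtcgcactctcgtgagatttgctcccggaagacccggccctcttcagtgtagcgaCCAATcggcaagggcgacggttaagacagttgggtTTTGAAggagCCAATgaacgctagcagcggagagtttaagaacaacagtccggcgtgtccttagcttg

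An E2F word stood in 13 of 19 replication promoters (68.4%) and in 3 of 18 mitosis promoters (16.7%), against 9.57% of all 32851 promoters. The CHR word stood in 13 of 18 mitosis promoters (72.2%) and in 2 of 19 replication promoters (10.5%), against 17.9% of all. CCAAT stood in 16 of 18 mitosis promoters (88.9%) and 13 of 19 replication promoters (68.4%), against 37.4% of all. Cdk1 and Mki67 held all 3 kinds, and Top2a and Ube2c held 6 CCAAT boxes each. The promoters printed above were picked as holding the words. Of the genes given on every array, Pcna, Cdc45 and Tk1 held no E2F word and Bub1 held no CHR word. A match is a stretch of letters and not a shown binding site.

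Both sets of promoters are rich in CpG, the dinucleotide that Dnmt1 methylates. The median number of CpG in 300 bases was 21 for the replication genes and 24.5 for the mitosis genes, against 7 over all promoters. The ratio of observed to expected CpG was over 0.6 in 15 of 19 replication promoters (78.9%) and in 17 of 18 mitosis promoters (94.4%), against 35.8% of all. Methylation itself was not measured in these arrays. The promoters of Mcm3 and Tk1 were among those under 0.6, with ratios of 0.452 and 0.428.

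**Figure D1:**
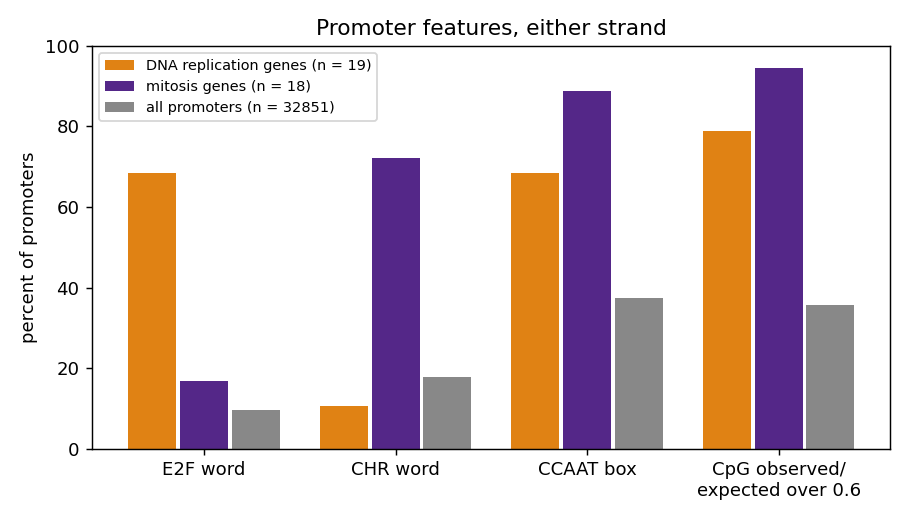
Percent of promoters (y axis) of replication genes (n = 19), mitosis genes (n = 18) and all genes (n = 32851) that hold an E2F word, the CHR word or a CCAAT box on either strand, or whose ratio of observed to expected CpG exceeds 0.6. E2F words stood in 68.4% of replication promoters and the CHR word in 72.2% of mitosis promoters, against 9.57% and 17.9% of all promoters.

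Median deposited signals were 19.8 to 36.3 over the 6 arrays, so the arrays were brought to a common median on the log2 scale, and all signals below are scaled in this way. Differences are siDNMT1 minus siNT on the log2(scaled signal + 5.29) scale, on which changes of dim probe sets come out too small. Bright probe sets differed less between repeats. Before scaling, repeat 2 was brighter than the other repeats by 0.85 (log2, median over probe sets of mean signal 200 to 500), and by only 0.37 at a mean signal of 4000 to 6000. Of 7 corticotroph markers 6 passed the filter on dim probe sets, among them Pomc and Tbx19. So did 4 of 6 other pituitary hormone genes, 5 of 8 fibroblast markers and 3 of 5 leukocyte markers. The summed signal of the 7 corticotroph markers was 8644 to 13610 (siDNMT1) and 10044 to 13664 (siNT). Summed signals were 116 to 195 (siDNMT1) and 114 to 219 (siNT) for 6 other pituitary hormone genes, 169 to 233 and 152 to 191 for 8 fibroblast markers, and 125 to 173 and 115 to 233 for 5 leukocyte markers.

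Dnmt1 itself was lower on the siDNMT1 array of each repeat. Dnmt1 had signals of 214, 142 and 301 on the siDNMT1 arrays of repeats 1 to 3, against 541, 701 and 619 on the siNT arrays. The groups did not overlap, and 39.6%, 20.2% and 48.6% of the paired control signal remained. The difference was -1.54 (SE 0.24), with a limma adjusted p of 0.151 without the repeat as a block and 0.0211 with it.

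None of the 44 measured replication and mitosis genes passed the limma test. On the brightest probe set of each gene, all of which passed the filter, 13 genes had higher and 31 lower values in the siDNMT1 cells, and the differences ran from -0.47 to 0.22. Of all 27022 tested probe sets 59.2% were lower, and of the 7726 with signals of 115 to 861, between the quartiles of the mean signals of these genes, 66.4% were. Their median was -0.08, beside a median of -0.06 over all tested probe sets and of -0.08 over those in that signal range. With the Benjamini-Hochberg adjustment at 0.05, limma called 0 of the 44 genes and 0 of their 85 tested probe sets, against 0% of all tested probe sets. With the repeat as a block it again called 0 of the 44 and 0 of the 85, against 0.0851% of all probe sets (23 of 27022). At an unadjusted p under 0.05 there were 0 of 44 genes without the block, against 3.79% of all probe sets (2.47% lower, 1.32% higher), and 2 of 44 with it, Mcm3 and Ccne2, both lower, against 7.83% of all (5.38% lower).

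The data bound how large a difference could be. The 95% interval of the limma difference, which covers the spread between repeats only, lay within a 2-fold change in either direction for 41 of the 44 genes. The exceptions were Ccne2, Bub1 and Kif23. The median half-width of these intervals was 0.42 on the log2 scale. Intervals of some dimmer probe sets of other genes reached past 2-fold, such as -1.33 to 0.37 for Cenpf and -0.17 to 1.36 for Cdc20. For 42 of the 44 genes the difference was smaller than the pooled SD of the arrays within groups, which was also the case for 73.4% of all tested probe sets. Cdc45 and Cdt1 were the 2 genes whose difference exceeded that SD.

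**Figure D2:**
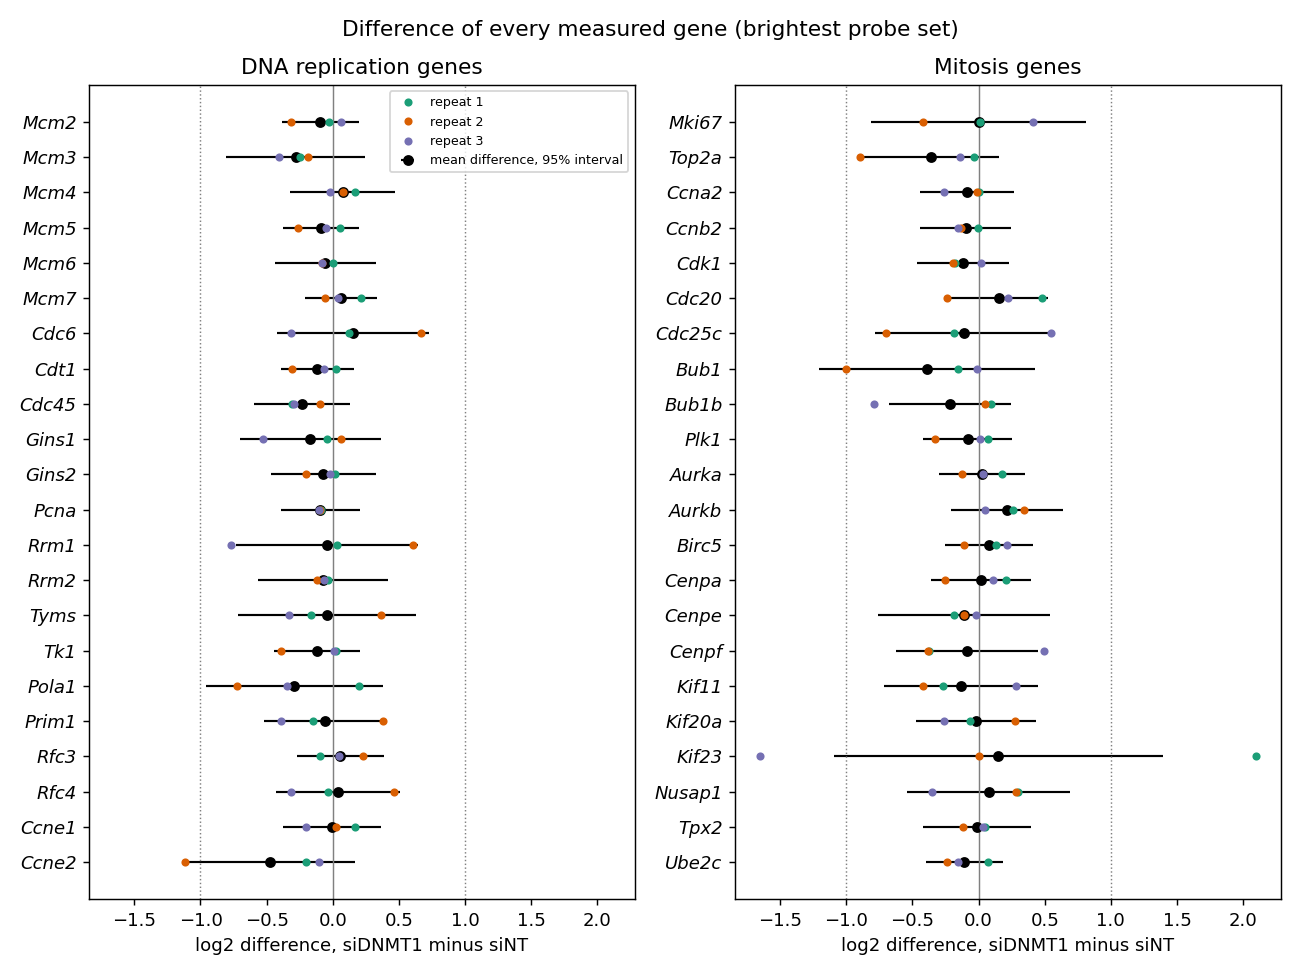
Log2 difference (siDNMT1 minus siNT, x axis) of the brightest probe set of each of the 44 measured genes, with replication genes on the left and mitosis genes on the right. Black points are means with 95% limma intervals without the block, coloured points are the 3 repeats, and dotted lines mark a 2-fold change. The means run from -0.47 (Ccne2) to 0.22 (Aurkb), and every interval drawn includes 0. With the block the unadjusted intervals of Mcm3 (-0.52 to -0.04) and Ccne2 (-0.94 to -0.01) do not.

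Among the 22 replication genes, 17 had lower and 5 higher values, and the median difference was -0.07. This split depended on the scaling: 12 of 22 were lower with trimmed mean scaling and 9 of 22 with quantile normalization, where the median was 0.01. On the brightest probe sets the values did not part the groups except for Cdc45, 1 of 44 genes whose siDNMT1 signals all lay below the siNT signals, against 5.78% of all tested probe sets. None of the 44 lay wholly above, against 2.96%. Overlap of the groups was counted here and below with the median scaling only.

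Licensing of origins is carried out by Cdc6 and Cdt1, which load the ring of Mcm2 to Mcm7 onto DNA. Mcm3, a ring subunit, had signals of 630.5, 1123 and 759.6 on the siDNMT1 arrays of repeats 1 to 3 and 748, 1281 and 1009.6 on the siNT arrays. It was lower in each repeat, both arrays of repeat 2 were high, and the groups overlapped. The difference was -0.28 (95% interval -0.80 to 0.24), with an unadjusted limma p of 0.263 without the block and 0.0271 with it (adjusted p 0.579). The 4 other Mcm3 probe sets had differences of 0.02, 0.07, -0.01 and 0.23. Mcm7 had 2970.3, 2663 and 2901 (siDNMT1) and 2554, 2780.2 and 2828 (siNT), overlapping groups with a difference of 0.06 (-0.21 to 0.34), and the 3 remaining Mcm7 probe sets gave 0.09, 0.14 and 0.29. The loading factor Cdt1 had 3195, 2692 and 2972 (siDNMT1) and 3134, 3336 and 3107 (siNT). Its lowest value was that of the siDNMT1 array of repeat 2, and the groups overlapped, with a difference of -0.12 (-0.39 to 0.16). Mcm2, Mcm5 and Mcm6 were at -0.09 (-0.38 to 0.20), -0.09 (-0.37 to 0.20) and -0.05 (-0.43 to 0.32), and Mcm4 at 0.07 (-0.32 to 0.47). A second bright Mcm5 probe set had 1134, 1087 and 1158 (siDNMT1) and 1200.4, 1394 and 1243 (siNT), which did not overlap, with a difference of -0.18 and an unadjusted limma p of 0.211. Cdc6 was at 0.16 (-0.42 to 0.73), with differences of 0.12, 0.66 and -0.32 in repeats 1 to 3. Over the 8 licensing genes, 3 had higher and 5 lower values, and the median was -0.07.

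Cdc45 and the GINS subunits Gins1 and Gins2 turn the loaded ring into an active helicase. Cdc45 had signals of 233, 262 and 268 on the siDNMT1 arrays, against 289.6, 281 and 329 on the siNT arrays. The siDNMT1 signals were the 3 lowest of the 6, and the nearest arrays of the groups were at 268 and 281. The difference was -0.23 (SE 0.16, 95% interval -0.59 to 0.13), with an unadjusted limma p of 0.183 without the block and 0.121 with it. On the dimmer Cdc45 probe set the difference was -0.21 and the groups overlapped. Gins1 and Gins2 were at -0.17 (-0.70 to 0.36) and -0.07 (-0.47 to 0.33).

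Synthesis of DNA is begun by the polymerase alpha and primase subunits Pola1 and Prim1, after which Rfc3 and Rfc4, of the clamp loader, place the sliding clamp Pcna. Pcna, whose protein also recruits Dnmt1 to replicating DNA, had 3847, 3496 and 4283 (siDNMT1) and 4093, 3727 and 4591 (siNT). Within each repeat the siDNMT1 array was a little lower, with differences of -0.09, -0.09 and -0.10, while the repeats themselves spread more widely. The difference was -0.09 (-0.39 to 0.20), it was 0.02 with quantile normalization, and the signal lies in the bright range where arrays differed less. Pola1 was dim, at 42.6, 25.8 and 22.7 (siDNMT1) and 36.4, 46.2 and 30.3 (siNT), with a difference of -0.29 (-0.96 to 0.38). Its groups overlapped, and repeat 1 ran opposite to repeats 2 and 3. Prim1, Rfc3 and Rfc4 were at -0.05 (-0.52 to 0.41), 0.06 (-0.27 to 0.39) and 0.04 (-0.43 to 0.51).

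Nucleotides for S phase come from ribonucleotide reductase (Rrm1 and Rrm2), thymidylate synthase (Tyms) and thymidine kinase (Tk1). Tk1 had 861, 739 and 811 (siDNMT1) and 846, 974 and 806 (siNT), and only in repeat 2 did the 2 arrays part visibly. The difference was -0.12 (-0.44 to 0.20), and 0.02 without repeat 2. Rrm2 was at -0.07 (-0.57 to 0.42) and Rrm1 at -0.04 (-0.73 to 0.64). All 4 Tyms probe sets were dim, 2 of them below the filter, and the brightest was at -0.04 (-0.72 to 0.63). A probe set that the annotation shares between Tyms and its pseudogene, outside the rule, was brighter and at 0.01 (-0.34 to 0.37).

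The E-type cyclins activate Cdk2 at the start of S phase. On the brightest probe sets Ccne2 had the most negative difference of the 44 genes. Its signals were 150.3, 65.1 and 95.8 on the siDNMT1 arrays of repeats 1 to 3 and 173, 147 and 103 on the siNT arrays. The gap was wide only in repeat 2, with differences of -0.20, -1.12 and -0.10 by repeat, and the groups overlapped. The mean difference was -0.47 (SE 0.29, 95% interval -1.12 to 0.17), with unadjusted limma p of 0.134 without the block and 0.0462 with it, and an adjusted p of 0.626 with it. Ccne1 was at -0.00 (-0.37 to 0.37).

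**Figure D3:**
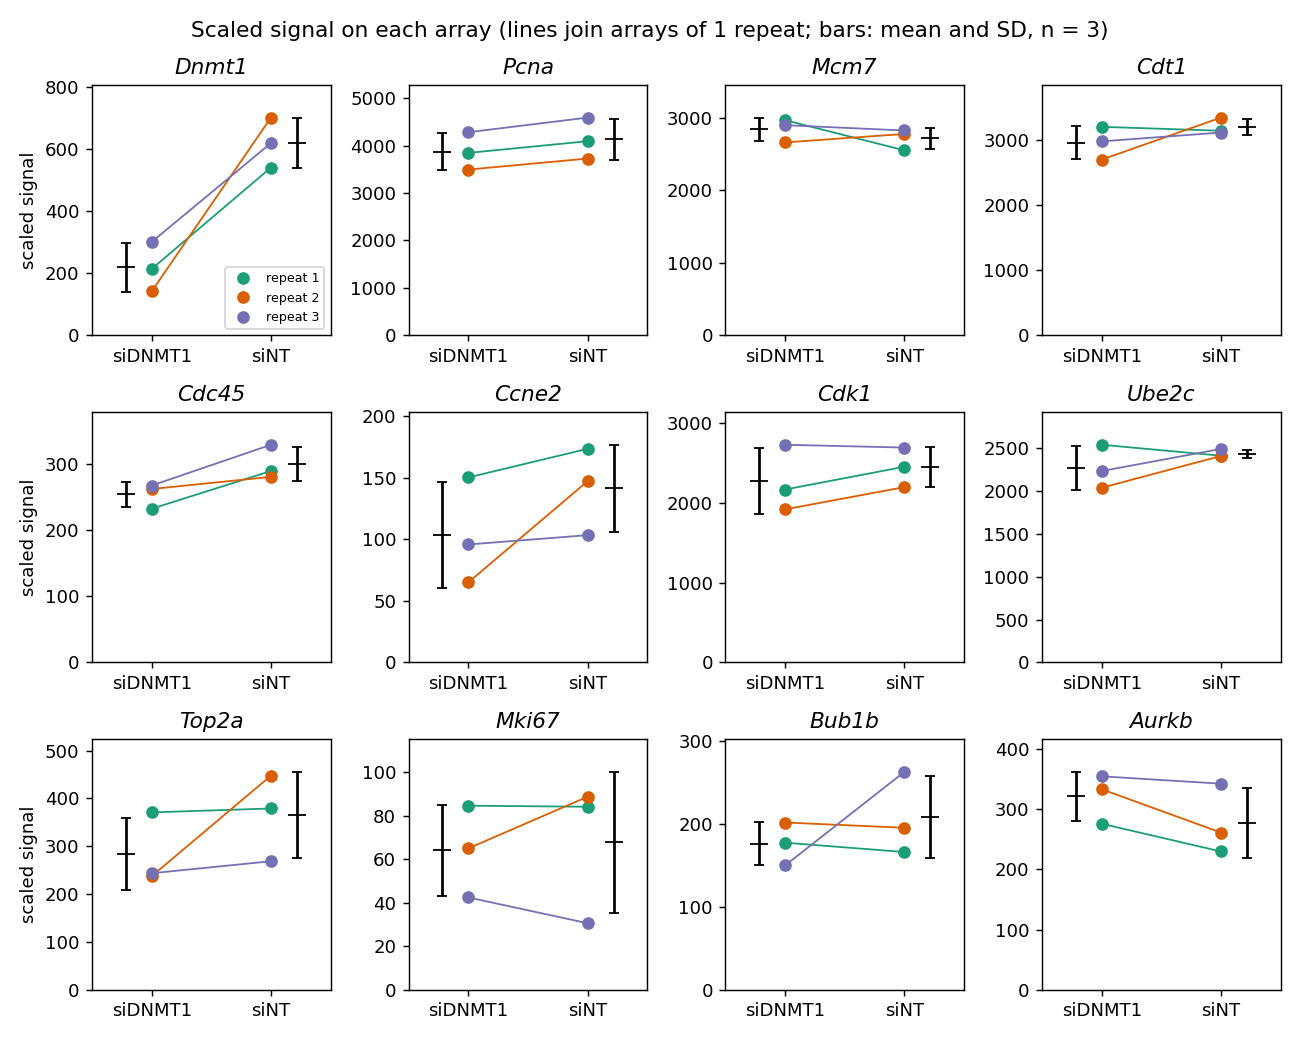
Scaled signal (y axis, linear, from 0) of Dnmt1 and 11 replication and mitosis genes on each array, siDNMT1 left and siNT right, with lines joining the arrays of a repeat and bars giving mean and SD (n = 3). With the median scaling drawn, Dnmt1 (142 to 301 against 541 to 701) and Cdc45 (233 to 268 against 281 to 329) part the groups, and the other genes do not. With trimmed mean scaling the Cdc45 groups overlap.

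Of the 22 measured mitosis genes, 14 had lower and 8 higher values, and the median difference was -0.09. With trimmed mean scaling or quantile normalization 12 of 22 were lower, and the median was -0.02 with either. None parted the groups. Mki67, whose protein coats mitotic chromosomes and is the usual marker of cycling cells, had 84.6, 65.0 and 42.4 on the siDNMT1 arrays of repeats 1 to 3 and 84.1, 88.7 and 30.5 on the siNT arrays. Repeat 3 was low in both groups, repeats 2 and 3 ran in opposite directions, and the mean difference was 0.00 (-0.81 to 0.81). Top2a, the topoisomerase that untangles sister chromatids, had 371, 237 and 243 (siDNMT1) and 379, 448 and 268 (siNT). The siDNMT1 array was lower in each repeat, mostly in repeat 2, and the groups overlapped. The difference was -0.36 (SE 0.23, 95% interval -0.87 to 0.16), with an unadjusted limma p of 0.154, the smallest among the mitosis genes, and 0.0644 with the block. A dimmer Top2a probe set was at 0.10.

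Entry into mitosis is driven by Cdk1 with cyclins A2 and B2 and by the phosphatase Cdc25c, which activates Cdk1. Cdk1 had 2163, 1915 and 2723 (siDNMT1) and 2447, 2193 and 2688 (siNT). Both arrays of repeat 3 were the highest, the groups overlapped, and the difference was -0.12 (-0.47 to 0.23). Ccna2, Ccnb2 and Cdc25c were at -0.09 (-0.45 to 0.27), -0.10 (-0.44 to 0.25) and -0.11 (-0.78 to 0.56). The second Ccna2 probe set was at -0.29.

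Exit from mitosis needs the anaphase-promoting complex with its activator Cdc20 and the ubiquitin-conjugating enzyme Ube2c. Cdc20 had 2055, 1843 and 1774 (siDNMT1) and 1469, 2173 and 1522 (siNT), with the siNT arrays of repeats 1 and 3 lowest. The difference was 0.16 (-0.21 to 0.53), and -0.01 without repeat 1. The dimmer Cdc20 probe sets gave 0.12 and 0.59. Ube2c had 2539, 2038 and 2232 (siDNMT1) and 2411, 2408 and 2490.1 (siNT). Its siNT arrays lay close together inside the range of the siDNMT1 arrays, and the difference was -0.11 (-0.40 to 0.18).

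The spindle checkpoint kinase Bub1 and its relative Bub1b hold back that exit until chromosomes are attached. Bub1b had 177, 202 and 149.9 (siDNMT1) and 166, 195 and 263 (siNT). The siNT array of repeat 3 was the highest and the siDNMT1 array of repeat 3 the lowest, while the arrays of repeats 1 and 2 nearly coincided. The difference was -0.22 (-0.68 to 0.25), and 0.07 without repeat 3. The dimmer Bub1b probe sets gave -0.03 and 0.05. Bub1 was dim, at 31.6, 20.6 and 17.7 (siDNMT1) and 35.9, 46.6 and 17.8 (siNT), overlapping groups with a difference of -0.39 (-1.21 to 0.43), while the second Bub1 probe set gave 0.54.

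The kinases Plk1, Aurka and Aurkb and the survivin gene Birc5 build the spindle and correct chromosome attachment. Aurkb, which acts with survivin in the chromosomal passenger complex, had the most positive difference of the 44 genes on the brightest probe sets. It had 276, 334 and 355 (siDNMT1) and 230.0, 261 and 343 (siNT). It was higher in each repeat, though the siNT array of repeat 3 exceeded 2 of the siDNMT1 arrays. The difference was 0.22 (SE 0.19, 95% interval -0.21 to 0.64), and the second Aurkb probe set gave 0.23. Birc5, Aurka and Plk1 were at 0.08 (-0.25 to 0.41), 0.03 (-0.30 to 0.35) and -0.08 (-0.42 to 0.25).

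At the centromere, the histone variant gene Cenpa was at 0.02 (-0.36 to 0.40), and the kinetochore genes Cenpe and Cenpf were at -0.11 (-0.76 to 0.54) and -0.09 (-0.63 to 0.45). Of the spindle and cytokinesis genes, the motor genes Kif11 and Kif20a were at -0.13 (-0.72 to 0.45) and -0.02 (-0.47 to 0.44), and the microtubule-binding protein genes Nusap1 and Tpx2 at 0.08 (-0.54 to 0.69) and -0.01 (-0.42 to 0.40). Kif23, a motor of the central spindle, was dim, and its difference had opposite signs in repeats 1 and 3. It had 60.3, 55.5 and 17.2 (siDNMT1) and 10.1, 55.3 and 65.4 (siNT), differences of 2.10, 0.01 and -1.65 in repeats 1 to 3 and a mean of 0.15 (-1.09 to 1.39).

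Several probe sets were tested for 29 genes. All of a gene's probe sets had lower values for 14 and higher values for 7, and 8 genes had probe sets in both directions. Taking the mean of a gene's tested probe sets in place of the brightest gave medians of -0.10 for the replication genes and -0.05 for the mitosis genes.

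The repeats differed from one another. In repeats 1, 2 and 3 the median difference of the replication genes was -0.02, -0.09 and -0.10, and that of the mitosis genes 0.03, -0.16 and 0.01, beside 0.02, -0.11 and -0.07 over all tested probe sets. Over the tested probe sets with signals of 115 to 861 the medians were 0.04, -0.16 and -0.09. For 33 of the 44 genes the 3 repeats did not share a direction, as for 70.7% of all tested probe sets. Lower in all 3 repeats were 10 of the 44 genes (Mcm3, Mcm6, Cdc45, Pcna, Rrm2, Ccne2, Top2a, Ccnb2, Bub1 and Cenpe), against 19.2% of all tested probe sets. Higher in all 3 was 1 of the 44, Aurkb, against 10.1%. Of the tested probe sets with signals of 115 to 861, 24.6% were lower in all 3 repeats and 8.21% higher. Directions by repeat were counted with the median scaling only.

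Single genes stood out in single repeats. In repeat 2 the lowest differences were those of Ccne2 (-1.12), Bub1 (-1.001), Top2a (-0.90), Pola1 (-0.73) and Cdc25c (-0.70). The highest were those of Cdc6 (0.66), Rrm1 (0.61) and Rfc4 (0.47). Without repeat 2, under the block, the mean differences of Ccne2, Bub1, Top2a and Pola1 were -0.15, -0.08, -0.08 and -0.07. Cdc25c was at -0.18 in repeat 1 and 0.55 in repeat 3. These genes were picked by their repeat 2 values, so smaller means without that repeat follow from the choice. Rrm1 ran the other way in repeat 3. It had 289, 398 and 394 on the siDNMT1 arrays and 283, 259 and 675 on the siNT arrays, where the siNT array of repeat 3 stood far above the other 5. Its second probe set also had its highest signal on that array, with 234, 416 and 272 (siDNMT1) and 191, 273 and 480.3 (siNT). In repeat 3 Bub1b, Gins1, Mcm3 and Prim1 were also low, at -0.79, -0.53, -0.41 and -0.39. With 1 array per group in a repeat, these values have no error of their own.

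**Figure D4:**
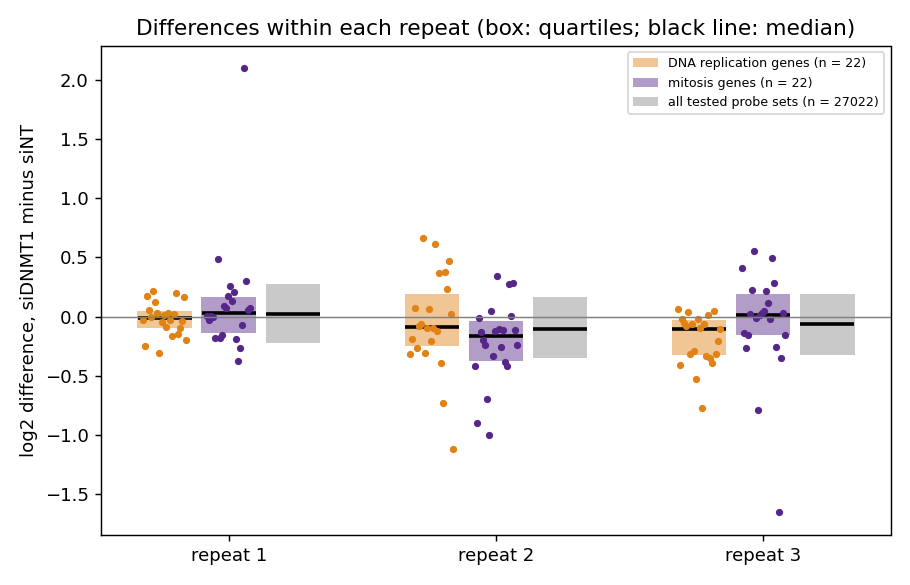
Log2 difference (siDNMT1 minus siNT, y axis) within each repeat for the replication genes, the mitosis genes and all tested probe sets. Boxes span the quartiles, black lines are medians and points are single genes; the replication medians were -0.02, -0.09 and -0.10 and the mitosis medians 0.03, -0.16 and 0.01 in repeats 1 to 3.

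Other genes of both processes were examined from lists that do not overlap the 45. Of 40 other replication genes, 38 had a probe set and all 38 passed the filter. Values were higher for 20 and lower for 18, the median was 0.01, and limma called 0 with or without the block. At an unadjusted p under 0.05 there was 1 of 38 without the block and 2 with it, against 3.79% and 7.83% of all tested probe sets. Timeless, of the fork protection complex, had 171, 177 and 234 on the siDNMT1 arrays of repeats 1 to 3, against 268, 318 and 295 on the siNT arrays. The groups did not overlap. The difference was -0.60 (SE 0.18), with a limma p of 0.00738 unadjusted and 0.9997 adjusted without the block. With the block the adjusted limma p was 0.302. On the second Timeless probe set the difference was -0.20, again with no overlap. Of the 38 genes 2 lay wholly below and 1 wholly above, against 5.78% and 2.96% of all tested probe sets. Orc5 of the origin recognition complex was at -0.41 and the polymerase epsilon subunit gene Pole3 at -0.42. The catalytic subunit gene Pole was dim, with 43.4, 50.4 and 9.28 (siDNMT1) and 11.2, 25.8 and 13.0 (siNT), overlapping groups and a difference of 0.69 (-0.44 to 1.83). That difference was 0.26 without repeat 1 under the block and 1.31 without siDNMT1 replicate 3.

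Of 61 other mitosis genes, 60 had a probe set and 54 passed the filter. Values were higher for 17 and lower for 37, and the median signal was 171. Of all tested probe sets 59.2% were lower, and 66.4% of those with signals of 115 to 861. This split was not recomputed with other scalings. The median difference of the 54 genes was -0.06, and limma called 0 with or without the block. At an unadjusted p under 0.05 there were 0 of 54 without the block and 1 with it, against 3.79% and 7.83% of all tested probe sets. Those with the smallest unadjusted p were the centromere protein genes Cenpn (-0.37) and Cenpm (-0.41), the checkpoint gene Mad2l1 (-0.27) and Anln (-0.45), encoding the cytokinesis protein anillin. Anln had 100.1, 57.9 and 56.8 (siDNMT1) and 107, 123 and 67.4 (siNT), with overlapping groups. Its difference was -0.16 without repeat 2 under the block and -0.70 without siDNMT1 replicate 1. That of Cenpm was -0.20 without siDNMT1 replicate 3. Mad2l1 had 403, 350.4 and 395 (siDNMT1) and 428, 449.7 and 515 (siNT), which did not overlap. Of the 54 genes 1 lay wholly below and 0 wholly above, against 5.78% and 2.96% of all tested probe sets.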

How the data were processed

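Total RNA of AtT-20 cells was measured on 6 Affymetrix mouse arrays, 3 siDNMT1 and 3 siNT, grouped by the labels. The deposited table holds 1 linear signal intensity per probe set, made by the authors with GCOS per the submitters' processing notes; the version of GCOS was not given in the sources used here. Arrays were scaled to 1 median log2 signal because their 2% trimmed means (70.2 to 140.2) differed by more than 10%. The pseudocount was the 20th percentile of the deposited values, and the 27022 probe sets at or above the 40th percentile of mean scaled signal (16.8) were tested with limma 3.58.1 in R 4.3.3 (lmFit, eBayes with a trend, two-sided, Benjamini-Hochberg at 0.05). Intervals are 95%. The brightest probe set stood for a gene. The limma fit was checked on simulated data.

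The design fixed no block. After group means were subtracted, the siDNMT1 and siNT arrays of one number correlated at 0.173, 0.231 and 0.257. Other pairs correlated at -0.179 to -0.0283, but the subtraction itself pushes them below 0 when same-number pairs lie above it. The labels describe independent repeats, so the arrays were paired by their number. P-values measure the spread between rounds of treatment of 1 cell line, and the number of arrays limits the precision.

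Genes given on every array were the 6 with the smallest unadjusted p and the 3 with the highest siNT signal in each set; Mki67, Rrm1 and Kif23 were added after their values were seen. Of the other lists, the 4 with the smallest p were named. Members and lists were chosen with earlier results of these data known. Alternatives covered scaling, pseudocount, filter, trend, block, probe sets and left-out arrays.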

Additional observations from a re-analysis of the deposited data

How the results depend on the processing

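No alternative called any of the 44 genes. Over all probe sets limma called 0 without the block, 1 with trimmed mean scaling, 1 with quantile normalization, 2 with no scaling, 1 with the stricter filter, 1 without _x_at and _s_at probe sets, and 0 to 4 when 1 array was left out. With the replicate block it called 23, and 50, 53 and 260 without replicate 2, 1 and 3. Combined with the block, chosen after seeing the data, trimmed mean scaling gave 3 calls and quantile normalization 4. The block changed no call of the replication and mitosis genes and brought Dnmt1 past the threshold, at -1.54 (limma adjusted p = 0.0211), but not when combined with trimmed mean scaling (-1.47, limma adjusted p = 0.0551) or quantile normalization (-1.46, limma adjusted p = 0.0532). Dnmt1 also passed without siDNMT1 replicate 3 (-1.79, limma adjusted p = 0.0438, the lowest of -1.79 to -1.26 when 1 array was left out). With the block it passed when a repeat was left out (-1.65, -1.17 and -1.79 without replicate 1, 2 and 3). Those last fits hold fewer arrays and rest largely on the variance that limma pools over probe sets. Their calls rose as arrays were removed.

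The replication median was -0.07, and -0.00985 with trimmed mean scaling and 0.00694 with quantile normalization, the same values with the block. It was -0.141 to -0.0299 when arrays or repeats were left out. The mitosis median was -0.09, -0.0246 with trimmed mean scaling, -0.0198 with quantile normalization, and -0.0990 to 0.0259 when arrays or repeats were left out, the highest without repeat 2 under the block. The median over all probe sets itself moved to 0.00 with trimmed mean scaling and -0.01 with quantile normalization. For the 23 genes named by the rule other than Dnmt1, 15 of the 44 and 8 of the other lists, 470 of 476 values under alternatives kept their direction and call; the remaining genes were not recomputed one by one. The 6 that turned sign were Tk1 without replicate 2 (0.0171), Pcna with quantile normalization with and without the block (0.0209), Mcm7 without replicate 1 (-0.0125), Bub1b without replicate 3 (0.0684) and Cdc20 without replicate 1 (-0.00817), and the cause was not tested. Signals near the pseudocount limit Tyms, Pola1, Bub1, Cenpe and Kif23.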
